A study of Mus musculus with 10 samples.

Results

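The genes described here encode 10 RNA-binding proteins by which neurons control the splicing, stability and translation of their transcripts: Rbfox1, Rbfox2, Rbfox3, Elavl2, Elavl3, Elavl4, Nova1, Nova2, Celf4 and Ptbp2. They were chosen by symbol, through the Ensembl identifiers of the count tables, and are 10 of the 25006 genes listed. Their levels were read in 10 single neurons of the mouse nucleus of the solitary tract, the first brainstem relay of signals from the viscera. The labels class 5 neurons as type 2 (numbered 6-2, 10-1, 10-3, 9-2 and 9-4) and 5 as type 1 (1-1, 1-2, 4-3, 8-2 and 9-1) by firing property, without describing the firing or explaining the numbers. The question is how the level of each regulator differs between the firing types.

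Both types share strain, age and genotype. The mice were 3-month-old C57BL/6 animals carrying LepRb-Cre and a Halo-eYFP reporter, so that a cell fluoresces once the leptin receptor promoter has driven Cre in it, whether or not the receptor gene Lepr is still transcribed. Lepr itself was at 29.4, 50.7, 34.1, 31.9 and 0.89 CPM (each count scaled by the library's total to the usual CPM scale) in the type 2 neurons in the order above, and at 122, 2.74, 59.8, 5.09 and 1.15 CPM in the type 1 neurons. The cytoplasm and nucleus of 1 cell were drawn into a patch pipette from an acute slice for each library.

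RNA-binding proteins of this kind recognise short sequences in a transcript. In the nucleus they favour or block the use of nearby exons, often depending on whether they bind upstream or downstream of the exon, and in the cytoplasm they affect how long a transcript lasts and how much it is translated. Rbfox proteins bind the element UGCAUG, Elavl (Hu) proteins bind U-rich and AU-rich stretches, and Nova proteins bind clusters of short CA-containing elements. Rbfox3 is the antigen of the NeuN antibody, the usual histological marker of mature neurons. Elavl2, Elavl3 and Elavl4 also serve as neuronal markers, and Ptbp2 takes the place of Ptbp1 when a precursor becomes a neuron.

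The labels name no animal, so each firing type counts as 1 sample and no test was made. The SD given is the spread between the 5 neurons of a type, and the difference between types is mean log2(CPM + 1) of type 2 minus that of type 1, a scale that understates the change of low genes. Detection means 10 CPM or more from no fewer than 3 counts. Gene counts were 12195253 to 41608996 per type 2 library and 9796799 to 41844825 per type 1 library, and 1 type 2 neuron (6-2) and 3 type 1 neurons (1-1, 1-2 and 4-3) had under 20000000. At these depths a count of 0 allows up to 0.0717 to 0.306 CPM, for counting error only. Neuronal marker genes summed to 7609 to 11267 CPM in type 2 and 7129 to 9938 CPM in type 1, so the neuronal label held in every library. Microglial genes were present besides: of 12 markers, 11 were detected in 6-2, 11 in 9-4, 6 in 9-2 and 5 in the type 1 neuron 1-2, with at most 1 in each of the others. Their sum ranged from 4.13 to 1786 CPM in type 2 and from 0.0668 to 804 CPM in type 1. Astrocyte markers summed to at most 189 CPM in type 2 neurons and 106 CPM in type 1 neurons, with 2 of 9 at 0 in every neuron. The 8 vascular markers summed to at most 10.7 CPM in type 2 neurons and 27.8 CPM in type 1 neurons, with 2 at 0 in every neuron. Oligodendrocyte-lineage markers summed to 39.2 to 220.2 CPM in type 2 and 2.00 to 1045 CPM in type 1, with 2 of 10 at 0 in every neuron. The 1045 CPM was in 9-1, and the other type 1 neurons held at most 141 CPM.

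Members of one family are close copies, so the stretch of coding sequence in which each family is most alike is shown, as 60 bases from GENCODE M21 on GRCm38 (the assembly called mm10). Lower-case letters are shared by all the family members shown and capitals mark the positions at which they are not.
Rbfox1, chr16:7292257-7294108 (plus strand): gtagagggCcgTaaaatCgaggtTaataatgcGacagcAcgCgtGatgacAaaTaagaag
Rbfox2, chr15:77102901-77105597 (minus strand): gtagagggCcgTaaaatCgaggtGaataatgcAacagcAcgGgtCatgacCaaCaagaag
Rbfox3, chr11:118501591-118502862 (minus strand): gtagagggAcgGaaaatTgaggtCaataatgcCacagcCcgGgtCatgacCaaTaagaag
Elavl2, chr4:91253294-91253353 (minus strand): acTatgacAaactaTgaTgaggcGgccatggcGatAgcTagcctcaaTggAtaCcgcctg
Elavl3, chr9:22018557-22018616 (minus strand): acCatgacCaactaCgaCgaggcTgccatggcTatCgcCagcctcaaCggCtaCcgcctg
Elavl4, chr4:110206386-110206445 (minus strand): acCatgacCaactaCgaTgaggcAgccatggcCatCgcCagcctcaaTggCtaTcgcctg
Nova1, chr12:46720852-46816940 (minus strand): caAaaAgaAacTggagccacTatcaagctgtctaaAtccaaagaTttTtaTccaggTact
Nova2, chr7:18942305-18950457 (plus strand): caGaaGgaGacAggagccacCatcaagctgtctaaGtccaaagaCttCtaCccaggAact

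The 3 Rbfox sequences share 50 of the 60 bases, the 3 Elavl sequences 49 and the Nova pair 50. The Rbfox and Nova stretches run across at least 1 intron, and the Elavl stretches lie within 1 exon each. Even so, the longest run of identical coding bases was 29 between Rbfox1 and Rbfox2, 29 between Elavl3 and Elavl4, 23 between Elavl2 and Elavl4 and 15 between Nova1 and Nova2. Over whole transcripts, none of the 50-base windows of Rbfox1, Rbfox2, Rbfox3, Elavl2, Elavl4 or Ptbp2 occurs in the transcripts of another gene. For Elavl3 3.13% of windows do, for Nova1 3.00% and for Celf4 0.203%. For Nova2 30.8% do, all of them in the predicted gene Gm26821, so Nova2 is given as uncertain. The read length is not given in the sources used here. No exon of the 10 genes shares bases with another gene listed in the tables. Counts per gene do not show which exons a transcript held, so exon choice was not analysed here.

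Detection of the regulators varied between cells, as it did for most genes. Of 100 values (10 genes in 10 neurons) 79 were detected, 37 of 50 in type 2 and 42 of 50 in type 1, and 7 were at 0 counts. Celf4 and Elavl4 were detected in all 10 neurons, 2 of 10 genes, against 18.4% of the 9212 genes averaging at least 10 CPM, a filter that all 10 members passed. The number of members detected in a neuron ran from 5 in 9-2 to 10 in 9-4 among type 2 neurons and from 8 to 9 among type 1 neurons. Over all genes listed, 5993 to 7367 were detected per type 2 neuron and 5315 to 7073 per type 1 neuron. The share of detected values over all genes was not computed, so the split of the members between types is not read further.

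Between the types, 2 of the 10 genes were higher in type 2 by at least 1 on the log2 scale (Elavl2 and Ptbp2) and 5 were higher in type 1 by at least 1 (Rbfox2, Rbfox3, Elavl3, Nova1 and Nova2). Over all 9212 genes, 32.1% passed the same limit towards type 2 and 22.3% towards type 1. The median difference was -0.53 over the members and 0.24 over all genes. The members' median moved with the neurons kept: it was -0.10 without 10-1, -1.15 without 9-4, -0.03 without 6-2, 9-2 and 9-4, and -1.45 in libraries over 20000000 counts. No member had every type 2 neuron above every type 1 neuron, which 1.72% of all genes had, and none had every type 1 neuron above every type 2 neuron, which 0.738% had. With TMM-scaled library sizes, which moved the median of all genes to 0.41, the members split into 2 higher in type 2 and 3 higher in type 1. Over all genes the shares with that scaling were 35.4% towards type 2 and 20.1% towards type 1. Rbfox2 (-0.91) and Elavl3 then lay just inside the limit. The difference exceeded the pooled SD between neurons of a type for 2 of the 10 genes, Rbfox3 and Nova1, both higher in type 1, and for 22.4% of the 9212 genes (13.7% higher in type 2 and 8.61% higher in type 1). Single neurons decide part of these counts: 3 genes were higher in type 1 without 6-2, without 9-2 or without 9-1, and 1 gene was higher in type 2 without 1-2. Over all genes the share towards type 1 was 25.4% without 6-2, 23.1% without 9-2 and 23.9% without 9-1. The share towards type 2 was 33.2% without 1-2.

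**Figure D1:**
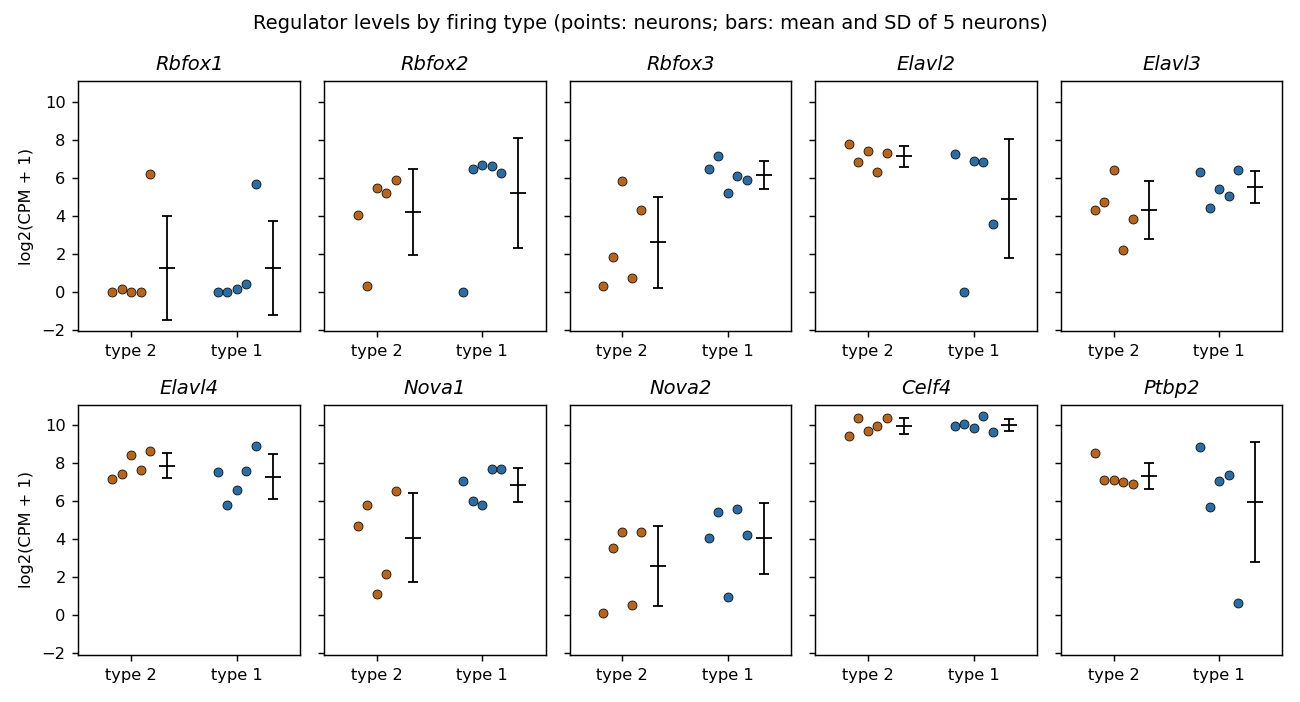
Level of each gene as log2(CPM + 1), with 1 point per neuron, type 2 at the left and type 1 at the right of each panel, and bars for the mean and SD of 5 neurons. Rbfox3 and Nova1 lay lower and spread wider in type 2 than in type 1, and Celf4 lay within a narrow band in both types.

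Rbfox3 (ENSMUSG00000025576, GRCm38 chromosome 11, 118489762 to 118911597, minus strand), the NeuN antigen, had the largest difference of the 10 genes. It was at 0.246, 2.52, 54.6, 0.631 and 18.8 CPM in type 2 neurons 6-2, 10-1, 10-3, 9-2 and 9-4, and at 86.0, 141, 35.1, 66.4 and 58.0 CPM in type 1 neurons 1-1, 1-2, 4-3, 8-2 and 9-1. Detection thus held for 2 of 5 type 2 neurons (exact binomial 95% interval 5.27 to 85.3%) and for 5 of 5 type 1 neurons (47.8 to 100%). The only overlap was 10-3, which lay above 4-3, and without either of these neurons the ranges stood apart. The difference was -3.56, and 1.90% of the 9212 genes had a lower one. It ranged from -5.94 to -2.08 over the 22 alternative settings, was -2.82 within libraries over 20000000 counts, and was -2.34 without 6-2, 9-2 and 9-4, the type 2 neurons with most microglial transcripts. Here and below, leaving those out kept the type 1 neuron 1-2, whose microglial markers summed to 804 CPM against 492 CPM in 9-2. Among the neurons numbered 9, a first number that occurs in both types, the difference of Rbfox3 was -3.37. The type 2 neurons 6-2, 10-1 and 9-2 held at most 2.52 CPM of Rbfox3 while 7 to 10 of the 10 neuronal markers were detected in them.

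Rbfox2 (ENSMUSG00000033565, chromosome 15, 77078990 to 77307004, minus strand), the most widely expressed member of the family outside the brain, was at 15.2, 0.24, 42.9, 35.7 and 58.3 CPM in the type 2 neurons and at 0, 87.4, 100.2, 97.5 and 74.3 CPM in the type 1 neurons. In 1-1 there was no count in 14976327, which allows up to 0.200 CPM, while the other 4 type 1 neurons lay above every type 2 neuron. The mean over type 2 neurons was 30.5 ± 22.9 CPM and that over type 1 neurons 71.9 ± 41.5 CPM (SD between 5 neurons, here and below), a difference of -1.02. That value rested on single neurons: it was -2.32 without 1-1 and -0.06 without 10-1, and its size was also under 1 without 6-2, 1-2, 4-3, 8-2 or 9-1 alone.

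Rbfox1 (ENSMUSG00000008658, chromosome 16, 5885355 to 7411526, plus strand), a family member of neurons, heart and skeletal muscle, was present in 1 neuron of each type. It was at 0, 0.0961, 0, 0 and 70.8 CPM in the type 2 neurons, with all but 4 of the counts in 9-4, and at 0, 0, 0.102, 0.335 and 50.6 CPM in the type 1 neurons, with nearly all counts in 9-1. The groups overlapped fully and the difference was 0.01. It was -2.61 among the neurons numbered 9, 1.12 without 9-1 and -1.22 without 9-4. These neurons share the first number 9, and they also held most of the Dbh counts (546 CPM in 9-4, 117 CPM in 9-1 and at most 0.65 CPM elsewhere), the gene of the enzyme that makes noradrenaline. Dbh was picked out after its values were seen. Th, another gene of noradrenaline synthesis, was at 0 CPM in both 9-4 and 9-1 and at 261 CPM in the type 1 neuron 1-2. In all, 23 genes were detected in 9-4 and 9-1 and in no other neuron, against a median of 25 genes over the 45 pairs of neurons.

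Summed over the family, Rbfox transcripts were at 59.99 ± 61.1 CPM (2.86 to 148) in type 2 and 159 ± 53.2 CPM (86.0 to 229) in type 1, a difference of -2.24 that ranged from -3.09 to -1.30 over the alternatives. Per kilobase of merged exon, which allows levels of different genes to be set side by side, the leading member differed from neuron to neuron. Rbfox2 made up 97.8% of the family in 6-2 and 97.6% in 9-2 among type 2 neurons, and 67.0% in 4-3 and 51.0% in 8-2 among type 1 neurons. Rbfox3 led in 10-3 (64.0%) and 10-1 (89.4% of a family total of only 2.86 CPM) in type 2, and in 1-1 (100%) and 1-2 (69.3%) in type 1. Rbfox1 led in 9-4 (60.7%) and in 9-1 (37.6%). All 3 members were detected in those 2 neurons, 1 of each type, and none was detected in the type 2 neuron 10-1.

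**Figure D2:**
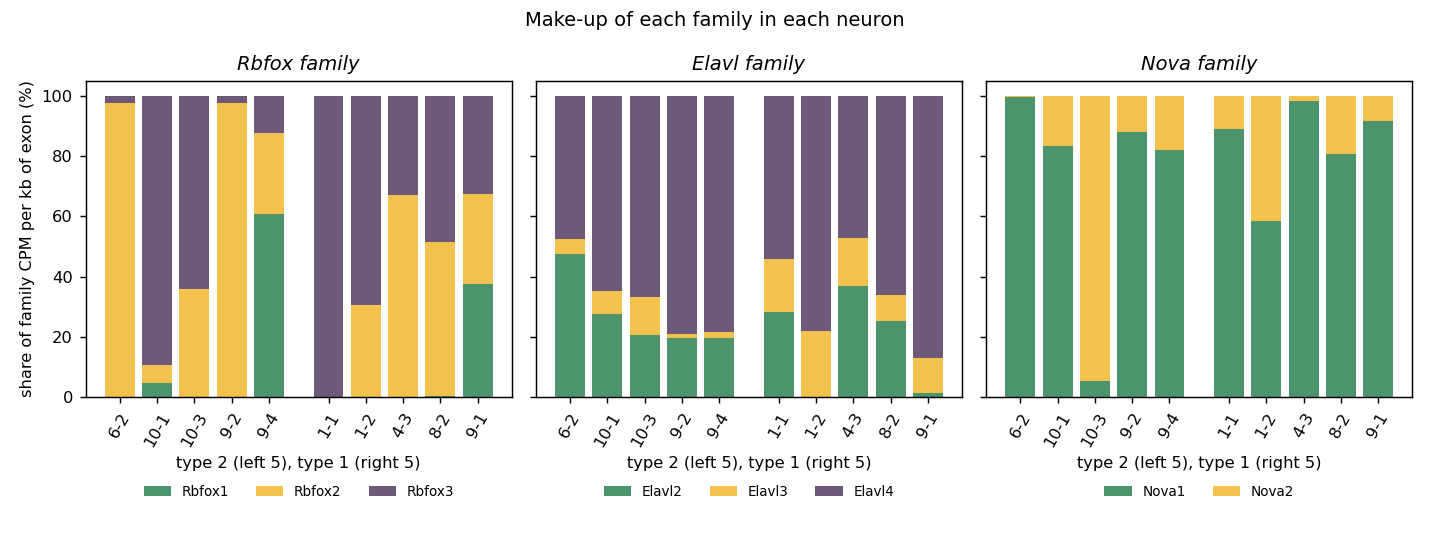
Share of each member in the summed CPM per kilobase of exon of its family, in per cent, in each neuron (type 2 left, type 1 right). Elavl4 led its family in all 10 neurons and Nova1 led in all but 10-3, while the leading Rbfox gene differed between neurons.

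Elavl2 (ENSMUSG00000008489, chromosome 4, 91250763 to 91400785, minus strand), also called HuB, was at 217, 113, 167, 76.8 and 156 CPM in the type 2 neurons and at 149, 0, 115, 113 and 10.9 CPM in the type 1 neurons. It was detected in every type 2 neuron. In type 1 it had no count in 1-2 (which allows up to 0.216 CPM) and was just over the detection limit in 9-1, while 1-1, 4-3 and 8-2 lay within the type 2 range. The type 2 mean was 146 ± 53.6 CPM and the type 1 mean 77.5 ± 67.4 CPM, a difference of 2.22. It was 0.99 without 1-2 and 0.46 as a difference of medians, so that it rests on the low values of 1-2 and 9-1.

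Elavl3 (ENSMUSG00000003410, chromosome 9, 22015005 to 22052023, minus strand), or HuC, was at 18.8, 25.6, 84.7, 3.51 and 13.2 CPM in the type 2 neurons and at 78.6, 19.8, 40.5, 32.1 and 82.4 CPM in the type 1 neurons. The highest value of all was in the type 2 neuron 10-3, while 6-2, 9-2 and 9-4 lay below every type 1 neuron. The difference was -1.21. It was -0.68 without 9-2, -0.99 without 9-1 and 0.08 without 6-2, 9-2 and 9-4, the 3 type 2 neurons with most microglial transcripts, whose part in the difference was not tested.

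Elavl4 (ENSMUSG00000028546, chromosome 4, 110203722 to 110351909, minus strand), or HuD, which stabilises transcripts used in neurite growth, was at 141, 172, 349, 200.2 and 403 CPM in the type 2 neurons and at 186, 55.6, 94.9, 192 and 487 CPM in the type 1 neurons. It was detected in every neuron, with the highest value of each type in 9-4 and 9-1. The type 2 mean was 253 ± 116 CPM and the type 1 mean 203 ± 169 CPM, and the difference of 0.57 is smaller than the spread between neurons. It was 0.21 without 1-2 and 0.98 without 9-1, and its direction turned to -0.77 among the neurons numbered 9 and to -0.21 in libraries over 20000000 counts. Its log2 level ran with the log2 library total over the 10 neurons (Pearson r 0.67, Spearman rho 0.56, a description over cells that differ in type and depth). Elavl4 made up 47.6 to 79.2% of the family per length in type 2 and 47.2 to 87.2% in type 1. The family sum was 428 ± 149 CPM in type 2 against 331 ± 187 CPM in type 1.

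Nova1 (ENSMUSG00000021047, chromosome 12, 46694517 to 46818929, minus strand), a splicing regulator of synaptic genes first known as an autoantigen of a paraneoplastic motor disorder, was at 25.01, 55.8, 1.19, 3.54 and 93.9 CPM in the type 2 neurons and at 133, 63.1, 54.8, 206 and 209.9 CPM in the type 1 neurons. Detection held for 3 of 5 type 2 neurons (exact binomial 95% interval 14.7 to 94.7%) and for 5 of 5 type 1 neurons (47.8 to 100%). The ranges overlapped through 10-1 and 9-4 at the top of type 2 and 1-2 and 4-3 at the bottom of type 1. The type 2 mean was 35.9 ± 39.2 CPM and the type 1 mean 133 ± 74.5 CPM. The difference was -2.78, with 4.36% of the 9212 genes lower, and lay between -3.78 and -1.59 over all 22 alternatives. It was -3.38 without 6-2, 9-2 and 9-4 and -3.34 among the neurons numbered 9.

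Nova2 (ENSMUSG00000030411, chromosome 7, 18925888 to 18965319, plus strand), the paralog that predominates in cortex, was low: 0.082, 10.5, 19.97, 0.456 and 19.7 CPM in the type 2 neurons and 15.7, 43.1, 0.919, 47.1 and 17.9 CPM in the type 1 neurons. It was not detected in 6-2 and 9-2 of type 2 and in 4-3 of type 1, and the ranges overlapped. The difference was -1.47, and it was -0.85 without 6-2, -0.96 without 9-2 and -0.10 without 6-2, 9-2 and 9-4. Per length Nova1 was the larger share in 4 of 5 type 2 neurons and in 5 of 5 type 1 neurons, and in 10-3 Nova2 made up 94.6%. The pair summed to 46.0 ± 44.2 CPM (4.00 to 114) in type 2 and 158 ± 82.4 CPM (55.7 to 253) in type 1, a difference of -2.24.

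Celf4 (ENSMUSG00000024268, chromosome 18, 25477632 to 25754157, minus strand), which binds 3' untranslated regions of synaptic transcripts and whose loss causes seizures in mice, was the most abundant of the 10 genes and had the smallest SD of log2 levels (0.41 in type 2, 0.31 in type 1). It was at 693, 1326, 839.6, 981 and 1336 CPM in the type 2 neurons and at 991, 1072, 928, 1430.4 and 807 CPM in the type 1 neurons. The groups overlapped throughout, with a mean of 1035 ± 288 CPM over type 2 neurons and 1046 ± 236 CPM over type 1 neurons. The difference was -0.03, and it ranged from -0.52 to 0.50 over the alternatives. Its mean level lay at percentile 99.5 of the genes with counts.

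Ptbp2 (ENSMUSG00000028134, chromosome 3, 119718742 to 119784466, minus strand), a repressor of exons that are kept out of transcripts until neurons mature, was at 377, 139.6, 136, 131 and 118 CPM in the type 2 neurons and at 465, 51.8, 134, 167 and 0.574 CPM in the type 1 neurons. The type 2 neurons other than 6-2 lay close together, and the type 1 neurons spread to both sides of them, from near absence in 9-1 to the highest value of all in 1-1. The type 2 mean was 180.4 ± 110 CPM and the type 1 mean 164 ± 181 CPM. The difference of 1.40 came from 9-1, without which it was 0.08. Ptbp1, the relative that neurons shut down, was detected in 2 of 5 type 2 neurons (12.5 ± 17.5 CPM) and in 2 of 5 type 1 neurons (27.3 ± 49.0 CPM).

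Levels of different genes can be set side by side per kilobase of merged exon. In type 2 neurons the order ran from Celf4 (121 CPM per kb) through Elavl4 (46.97), Ptbp2 (19.7), Elavl2 (17.5), Elavl3 (4.23), Nova1 (4.10), Rbfox2 (3.74), Rbfox1 (3.22) and Rbfox3 (2.64) to Nova2 (1.21). In type 1 neurons it ran from Celf4 (122 CPM per kb) through Elavl4 (37.7), Ptbp2 (17.9), Nova1 (15.2), Rbfox3 (13.3), Elavl2 (9.32), Rbfox2 (8.83), Elavl3 (7.36) and Nova2 (2.98) to Rbfox1 (2.32). Celf4 thus came first and Elavl4 came after it in both types, while Rbfox3 took the ninth place in type 2 and the fifth in type 1. Celf4 stood off from Elavl4 by more than the SD between neurons in both types. In type 2 the step below Elavl4 and the step below Elavl2 also exceeded the SD, and in type 1 the step below Elavl3 did. All other neighbours in either order differed by less than the larger of their SDs.

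Likeness between genes was measured as Pearson r of log2(CPM + 1) over the 10 neurons among 8810 named genes averaging at least 10 CPM, and is a description, since all points share library and depth. Among the members themselves the closest pair was Rbfox3 and Nova2 (r 0.77, rho 0.76). For Rbfox3 the most alike genes were Vps13b (0.95), Pcsk2 (0.94), the prohormone convertase of peptide-secreting neurons, and Mlycd (0.93). For Nova1 they were Zfp68 (0.95), the splicing factor gene Srsf7 (0.93) and Ganab (0.92). For Elavl2 they were Sf3a3 (0.96), a spliceosome subunit, Cgref1 (0.93) and Qpct (0.93), which share its low values in 1-2 and 9-1. The rank correlation with Sf3a3 was only 0.31.

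Other regulators of RNA, listed by family and pathway, show where the 10 genes stand among genes of related function. Beside the counts of list genes past the limit of 1, the share over all 9212 genes was 32.1% towards type 2 and 22.3% towards type 1. Of the 8 other Elavl, Celf and Ptbp genes, none differed by 1 or more in either direction, and the median difference was 0.16. The nearest to a difference was Celf6, at 438 ± 239 CPM in type 2 against 237 ± 114 CPM in type 1 (0.93). Elavl1, the ubiquitous Hu protein, differed by 0.52 and Celf1 by 0.44, and in both the direction rested on single neurons. Elavl1 was at -0.47 without 1-2, -0.07 without 4-3 and -0.01 without 6-2, and at -1.98 among the neurons numbered 9. Celf1 was at -0.28 without 1-2, -0.64 without 4-3 and -0.11 without 10-3, and at -1.59 among the neurons numbered 9. In libraries over 20000000 counts Elavl1 was at -1.94 and Celf1 at -1.70.

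Of 16 other tissue-restricted splicing regulators, 11 averaged at least 10 CPM, 4 of them higher by at least 1 in type 2 and 1 in type 1. Mbnl3, Esrp1, Esrp2 and Rbm20 were at 0 in every neuron, Esrp1 and Esrp2 being epithelial regulators and Rbm20 a cardiac one. The KH-domain gene Khdrbs2, or Slm1, was at 95.5 to 178 CPM in type 2 and 0 to 67.3 CPM in type 1 (mean 122 ± 34.8 CPM in type 2 against 26.0 ± 35.6 CPM in type 1), a difference of 4.41 with every type 2 neuron above every type 1 neuron. Such a separation held for 1 of these 11 genes and for 1.72% of the 9212 genes. Qk (2.82), which is also abundant in glia, and Khdrbs1 (1.98) were higher in type 2 as well, although Khdrbs1 was at 0.90 without 1-1, 0.98 without 9-1, -0.36 with medians and -0.14 with ratios of mean CPM, and Qk at -2.40 among the neurons numbered 9. Srrm4, the activator of neuronal microexons, was at 42.2 ± 64.2 CPM in type 2 against 93.6 ± 90.2 CPM in type 1 (-1.80).

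SR and hnRNP genes were lower in type 2 more often than higher. The share of all genes that were lower was not computed, so the counts of lower genes have no background. The median difference over all genes was 0.24. Among 18 SR proteins and related activators, which recruit the spliceosome to exons, 13 were lower in type 2, 6 of them by at least 1, and 3 were higher by at least 1, with a median of -0.71. Summed, they were at 2182 to 3979 CPM in type 2 and 4295 to 6688 CPM in type 1, with no overlap. No SR gene taken singly had every type 1 neuron above every type 2 neuron. How often sums of other gene lists stand apart was not examined. With TMM scaling the gap nearly closed, the lowest type 1 neuron being at 1.01 times the highest type 2 neuron. Srsf12 was at 69.9 ± 50.6 CPM in type 2 against 206 ± 72.05 CPM in type 1 (-1.69), Son, a scaffold of nuclear speckles, at 154 ± 74.7 CPM in type 2 against 469.7 ± 312 CPM in type 1 (-1.62), and Srsf4 was higher in type 2 (1.61, with 0.99 without 9-4 and -0.25 without 6-2, 9-2 and 9-4). The difference of Srsf12 was -0.18 in libraries under 20000000 counts, and that of Son was -0.31 among the neurons numbered 9.

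Among 26 hnRNP genes averaging at least 10 CPM, 20 were lower in type 2, 10 of them by at least 1, and 4 were higher by at least 1, with a median of -0.66. Their sums were 2500 to 3632 CPM over the type 2 neurons and 4310 to 5996 CPM over the type 1 neurons. These sums did not overlap on the CPM scale and did overlap with TMM scaling, where the lowest type 1 neuron was at 0.859 times the highest type 2 neuron. Hnrnpr was at 0.221 to 131 CPM in type 2 and 141 to 217 CPM in type 1 (mean 56.6 ± 48.5 CPM in type 2 against 181 ± 28.0 CPM in type 1), a difference of -2.64 with every type 1 neuron above every type 2 neuron. Such a separation held for 1 of the 26 hnRNP genes and for 0.738% of the 9212 genes. Hnrnpdl was at 76.8 ± 71.6 CPM in type 2 against 163 ± 112 CPM in type 1 (-2.06, with -0.99 without 9-2 and 0.17 in libraries under 20000000 counts), and Hnrnpul1 was higher in type 2 (3.02).

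**Figure D3:**
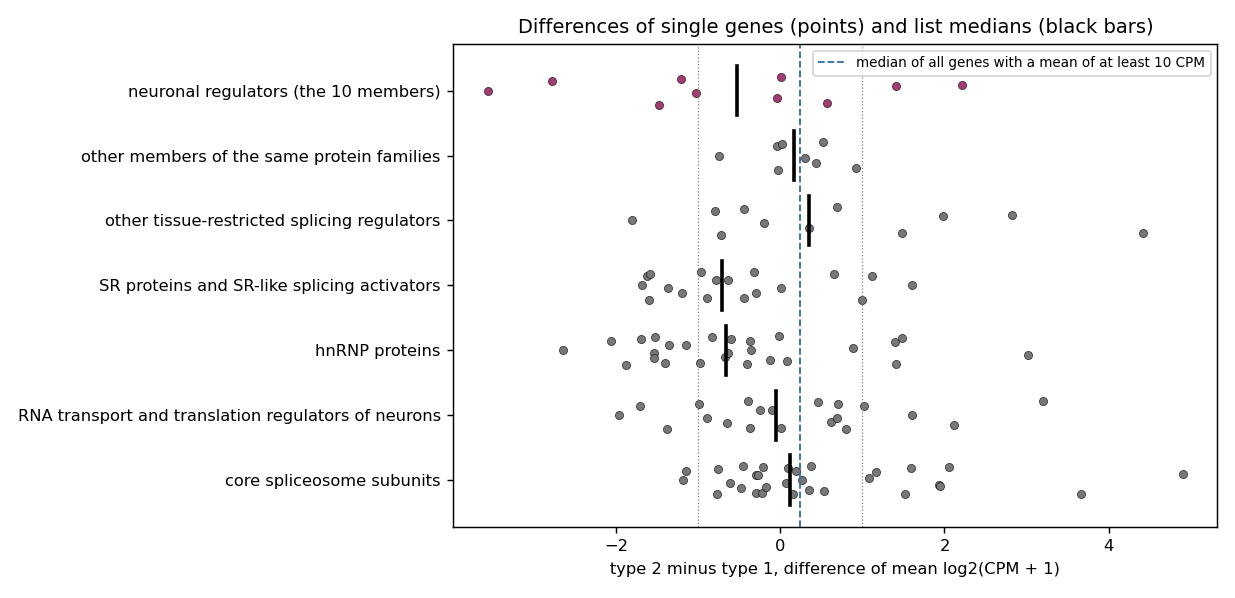
Difference of mean log2(CPM + 1), type 2 minus type 1, for single genes averaging at least 10 CPM (points), by list, with list medians as black bars, the limits of -1 and 1 dotted and the median of all genes dashed. The SR and hnRNP lists have medians of -0.71 and -0.66, below the 0.24 of all genes, and the members spread from -3.56 to 2.22.

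Transcripts that stay in the nucleus were lower in type 2 as well. The 8 nuclear-retained RNAs measured, led by Malat1, had a median difference of -1.31, with none higher by at least 1 in type 2 and 5 higher by at least 1 in type 1. They summed to 1817 to 13317 CPM in type 2 and 5837 to 38235 CPM in type 1. How much of each nucleus entered the pipette is not recorded, and its part in the differences of the members and of the SR and hnRNP genes was not tested. Over the 10 neurons the log2 nuclear sum had an r of 0.90 (rho 0.84) with the log2 SR sum and of 0.56 (rho 0.59) with the log2 hnRNP sum. Without 10-1 and 4-3, the neurons farthest from the median nuclear sum, these r were 0.80 and 0.60. With the sum of core spliceosome subunits the r was -0.24 (rho -0.20), and 0.10 without the same 2 neurons. Over the 10 members the r ran from -0.51 (rho -0.55) with Elavl4 to 0.37 (rho 0.33) with Rbfox3, and was 0.10 (rho -0.04) with Nova1. These are descriptions over cells whose values share library and depth and which differ in type.

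The core subunits of the spliceosome had a median of 0.13 over 30 genes, 9 of them higher by at least 1 in type 2 and 2 in type 1. Over all genes the shares were 32.1% towards type 2 and 22.3% towards type 1. Sf3a1 of the U2 particle was at 63.1 ± 47.8 CPM in type 2 against 0.0542 ± 0.0966 CPM in type 1 (4.90). It was detected in 4 of 5 type 2 neurons, and the lowest type 2 value (0.0552 CPM) lay within the type 1 range (0 to 0.223 CPM). Snrnp200 differed by 3.67, with overlapping ranges (13.9 to 182 CPM in type 2, 0 to 143 CPM in type 1). Sf3b5 differed by 2.05, with -1.02 among the neurons numbered 9. Regulators of RNA transport and translation in neurites had a median of -0.05 over 20 genes, 4 higher by at least 1 in type 2 and 3 in type 1. Cpeb1, which controls cytoplasmic polyadenylation, was higher in type 2 (3.19), but its highest value was in a type 1 neuron. It was at 46.6 to 222 CPM in type 2 and 0.828 to 256 CPM in type 1. Fxr2 was also higher in type 2 (2.11), and its relative Fmr1, the fragile X gene, was lower (-1.97). Among the neurons numbered 9 Fxr2 differed by 0.12 and Fmr1 by -0.02, and in libraries over 20000000 counts Fxr2 differed by 0.78 and Fmr1 by -0.54.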

How the data were processed

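Each of the 10 libraries came from 1 neuron, cytoplasm and nucleus together. The authors deposited raw read counts per Ensembl gene, whole numbers with no normalization. Per the submitters' processing notes, cutadapt 1.13, STAR, HTSeq 0.6.1p1 and DESeq2 were used with the mm10 build. The sources used here give neither their order nor the annotation release, strand option, read length or any amplification.

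CPM was computed from library totals (Python 3.11.15, numpy 2.4.6, pandas 2.3.3). Symbols and GENCODE M21 coordinates were matched for 24942 of 25006 genes. No animal is named, so each firing type was treated as 1 sample and no test, p-value or standard error was made. The limit set by a count of 0 (3 counts) covers counting error only. Clopper-Pearson intervals take the 5 neurons of a type as independent draws, which the labels do not show. No library is a copy of another: over 45 pairs, chi-square divided by its degrees of freedom was at least 619. The difference procedure was tried on simulated counts, with planted changes and noise around a common mean for each gene. The simulation did not model genes absent from single neurons, as some members were, so it does not cover them.

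The members and gene lists were chosen with earlier results of these data known, as were the depth sets and the leaving out of 6-2, 9-2 and 9-4. Named genes were all members, the 3 largest differences of each related list among genes with detection in 3 or more neurons of either type, and the 3 most alike genes of the 3 members with the largest differences. Ptbp1, Srrm4, Dbh, Th, Lepr and the genes at 0 were added. The alternatives were pseudocounts of 10 and 0.1, TMM scaling (edgeR 4.0.16, R 4.3.3), totals without the 50 most abundant genes, thinning to the smallest library, medians over neurons, log2 ratios of mean CPM, equal weight for each first number, neurons numbered 9 alone, libraries over or under 20000000 counts, leaving out 6-2, 9-2 and 9-4, and leaving out each neuron in turn.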

Additional observations from a re-analysis of the deposited data

Results flagged for a closer look

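Among the 20 sets of 5 neurons (10 genes in each of the 2 types), 4 held a neuron far from the other 4 by Dixon's criterion at the 95% level. The nominal rate of 1 in 20 is for independent, normally distributed values. These sets share the same 10 libraries and hold values at 0, so the number flagged cannot be set against that rate. Rbfox1 was at 70.8 CPM in the type 2 neuron 9-4, with the other type 2 neurons at 0 to 0.0961 CPM, and at 50.6 CPM in the type 1 neuron 9-1, with the other type 1 neurons at 0 to 0.335 CPM. Ptbp2 was at 377 CPM in the type 2 neuron 6-2, with the others at 118 to 139.6 CPM. Rbfox2 was at 0 CPM in the type 1 neuron 1-1, with the others at 74.3 to 100.2 CPM.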

How the results depend on the processing

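Of the 220 differences of single members recomputed over 22 alternatives, 213 moved by less than the spread between neurons, 6 moved by more and 1, of a gene differing by 1 or more, changed sign. Leaving out 1 neuron of 5 cannot move a difference by more than that spread, so the 213 are no measure of stability. They include Ptbp2 (1.40), at 0.08 without 9-1 and 0.02 with medians, and Elavl2 (2.22), at 0.46 with medians. Counting every size, 24 of the 220 had the other sign, 14 of Rbfox1, 7 of Celf4, 2 of Elavl4 and 1 of Elavl3. Rbfox3 and Nova1 stayed beyond -1 in all 22. The cause of the changes below was not tested. The count higher in type 2 (2 genes) was 1 with a pseudocount of 10, 0 with medians and 0 with log2 ratios of mean CPM, and 1 to 2 with single neurons left out. The share of all genes was 17.2% with a pseudocount of 10, 28.5% with medians and 18.1% with log2 ratios. With single neurons left out it was 30.1 to 35.7%. The count higher in type 1 (5 genes) was 2 with a pseudocount of 10, 3 with TMM scaling and 3 to 6 with single neurons left out. The share of all genes was 13.3% with a pseudocount of 10, 20.1% with TMM scaling and 21.4 to 25.4% with single neurons left out. Members with every type 2 neuron above type 1 (0 genes) numbered 3 among neurons numbered 9 and 1 in libraries under 20000000 counts, which hold 1 type 2 neuron. Members with every type 1 neuron above type 2 (0 genes) numbered 5 among neurons numbered 9, 3 in libraries over 20000000 counts, 5 in those under it and 0 to 1 with single neurons left out. These subsets hold 1 to 4 neurons of a type, and more genes of any kind stand apart in them (towards type 2, 39.1% among neurons numbered 9 and 26.3% under 20000000 counts; towards type 1, 32.8% among neurons numbered 9, 8.71% over and 11.6% under 20000000 counts). The median difference of the members (-0.53) was -1.45 in libraries over 20000000 counts, -0.03 without 6-2, 9-2 and 9-4, and -1.15 to -0.10 with single neurons left out. Among genes differing by 1 or more, signs turned for Elavl3 (0.0781) and Srsf4 (-0.25) without 6-2, 9-2 and 9-4, for Khdrbs1 with medians (-0.36) and ratios of means (-0.14), for Qk (-2.40) and Sf3b5 (-1.02) among neurons numbered 9, and for Sf3b5 (-0.032) over and Hnrnpdl (0.17) under 20000000 counts. Among neurons numbered 9, smaller differences also turned for Rbfox1 (-2.61), Elavl4 (-0.77), Celf4 (0.50), Elavl1 (-1.98), Celf1 (-1.59) and the summed Elavl family (-0.53). The alternatives for the summed SR and hnRNP levels were chosen after seeing the data. Depth limits the statement of absence to 0.0717 to 0.306 CPM, and 5 neurons a type with no named animals limit every comparison.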
